A study of Arabidopsis thaliana with 72 samples.

Results

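The genes described here are 152 Arabidopsis thaliana genes whose transcripts were lower with methyl jasmonate (MeJA) than without it in both genotypes and at both phosphate supplies. They were chosen from 27206 counted loci by their levels in the MeJA and untreated libraries, in CPM (the read count divided by the library total and scaled to a common depth). In each of 4 settings (genotype by phosphate), the untreated mean had to be at least 5 CPM and the ratio of the MeJA mean to the untreated mean at most 0.6. The first condition left 14688 loci, and 155 of them (1.06%) met the second as well. 3 of these were dropped by name, which left the 152. The MeJA and untreated libraries therefore fixed the direction of the MeJA values below, which are given as a description without a test. The 3 genes just inside the limit had highest ratios of 0.5996 (AT2G05632), 0.5986 (AT4G36610) and 0.5985 (AT5G46890). The 3 just outside had 0.6004 (LUP1), 0.6006 (CYCP2;1) and 0.6012 (RVE2). The lowest untreated means inside the limit were 5.10 CPM for HFR1, 5.12 CPM for AT1G51830 and 5.16 CPM for AT1G67910.

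RNA-seq was done on whole seedlings in 12 groups of 6 libraries, 3 each from experiments A and B, which the series calls independent. The double mutant phr1 phl1 and the wild type Col-0 were grown for 7 days on 1 mM phosphate. They then stayed for 12 days on low Pi (about 5 µM) or high Pi (1 mM), with 10 µM MeJA, with 1 µM flg22, or with neither. The mutant is named for PHR1 and PHL1, a pair of MYB-type regulators of genes for phosphate shortage, and flg22 is a peptide of bacterial flagellin that plants sense as a sign of infection. In whole seedlings, fewer cells of a type and less RNA per cell cannot be told apart.

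Total counts per library ran from 692426 to 6883818, and from 692426 to 2403150 in MeJA-treated Col-0 at high Pi, the group that held the lowest of them. PHR1 transcripts stood at 11.9 to 48.6 CPM in 35 phr1 phl1 libraries and at 47.0 to 73.2 CPM in 36 Col-0 libraries. PHL1 transcripts stood at 28.5 to 132 CPM in phr1 phl1 and at 6.33 to 20.8 CPM in Col-0, higher in every mutant library. Reads of both genes were thus present in the mutant, and whether their function was lost cannot be read from these levels. One library, B1, labelled as untreated phr1 phl1 at high Pi, did not match that label. It held 70.8 CPM of PHR1 and 21.0 CPM of PHL1. It also held 218 CPM of VSP2, a storage protein gene induced by jasmonate, against at most 2.27 CPM in the other untreated libraries. It was left out of the choice of genes and of every comparison below, so that group has 5 libraries.

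Plants convert MeJA to jasmonic acid and then to its isoleucine conjugate, which binds the receptor COI1 together with JAZ repressor proteins. The JAZ proteins are then degraded, and MYC and other transcription factors are set free. Jasmonate is known for switching on defence genes and for slowing the growth of roots and leaves, a process in which cell walls, photosynthesis and nutrient uptake are all adjusted.

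The 300 bases before the annotated start are shown for 3 of the genes described below. AGP30 is the wall protein gene with the lowest flg22 values in 3 settings. PHO1;H1 and FRO6 are genes with less transcript in phr1 phl1 at low Pi. The bases are from RefSeq, build TAIR10.1, and are written 5′ to 3′ on the strand of the gene. Capitals mark TTGAC in AGP30 (the W-box core bound by WRKY factors), and CACGTG (the G-box) and AACGTG (the T/G-box), bound by MYC factors, in FRO6. The window of PHO1;H1 held none of GNATATNC (P1BS, the PHR1 binding motif), CACGTG and AACGTG, and has no capitals. GNATATNC was also absent from the windows of AGP30 and FRO6.
AGP30 (chr2:14295354-14295653, minus strand): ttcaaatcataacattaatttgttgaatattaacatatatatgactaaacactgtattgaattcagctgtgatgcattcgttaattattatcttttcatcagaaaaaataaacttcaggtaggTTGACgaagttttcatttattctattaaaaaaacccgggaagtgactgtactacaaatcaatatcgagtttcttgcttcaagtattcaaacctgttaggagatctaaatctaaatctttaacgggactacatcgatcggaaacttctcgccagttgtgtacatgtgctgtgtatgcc
PHO1;H1 (chr1:25816984-25817283, minus strand): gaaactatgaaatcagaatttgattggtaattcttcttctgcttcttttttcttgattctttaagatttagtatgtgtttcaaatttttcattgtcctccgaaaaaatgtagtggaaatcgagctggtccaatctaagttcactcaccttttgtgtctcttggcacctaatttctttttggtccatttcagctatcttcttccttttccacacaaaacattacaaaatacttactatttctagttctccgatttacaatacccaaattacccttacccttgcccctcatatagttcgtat
FRO6 (chr5:20204596-20204895, minus strand): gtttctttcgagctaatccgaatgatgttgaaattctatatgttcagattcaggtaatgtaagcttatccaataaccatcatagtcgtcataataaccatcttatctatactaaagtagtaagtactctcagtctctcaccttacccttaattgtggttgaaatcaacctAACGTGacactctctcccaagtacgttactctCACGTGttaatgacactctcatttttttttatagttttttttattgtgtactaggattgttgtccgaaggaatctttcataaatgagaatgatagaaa

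Over all 152 genes, such windows held CACGTG in 3.29% and AACGTG in 8.55%, against 7.94% and 8.21% of the windows of 14678 loci with an untreated mean of at least 5 CPM. GNATATNC was present in 10.5% of the gene windows and 6.52% of all windows, and TTGAC in 48.0% and 49.6%. GCCGCC, the GCC-box of ERF factors, was in 0 of 152 windows and in 2.28% of all. Both strands were searched, and CACGTG and AACGTG share the core ACGTG. Such matches describe the letters and show neither binding nor its absence.

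The summed level of the 152 genes set the MeJA libraries apart, which the choice of the genes fixed against the untreated ones. The genes were chosen as low in these same MeJA libraries, which favours a lower sum there than in flg22 libraries too. The 24 MeJA libraries held 2525 to 3578 CPM (median 2918). The 24 flg22 libraries held 4991 to 7134 CPM (median 6263), and the 23 untreated libraries 5243 to 8236 CPM (median 6695). No MeJA library reached the lowest flg22 or untreated library. Between flg22 and untreated libraries the ranges overlapped. The group means of MeJA and untreated libraries were 2836 ± 212 and 6406 ± 782 CPM in phr1 phl1 low Pi (SD, n = 6 each), and 2883 ± 146 CPM (n = 6) and 6847 ± 452 CPM (n = 5) in phr1 phl1 high Pi. In Col-0 they were 3160 ± 261 and 6992 ± 801 CPM at low Pi, and 2927 ± 163 and 6928 ± 566 CPM at high Pi (SD, n = 6 each).

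**Figure D1:**
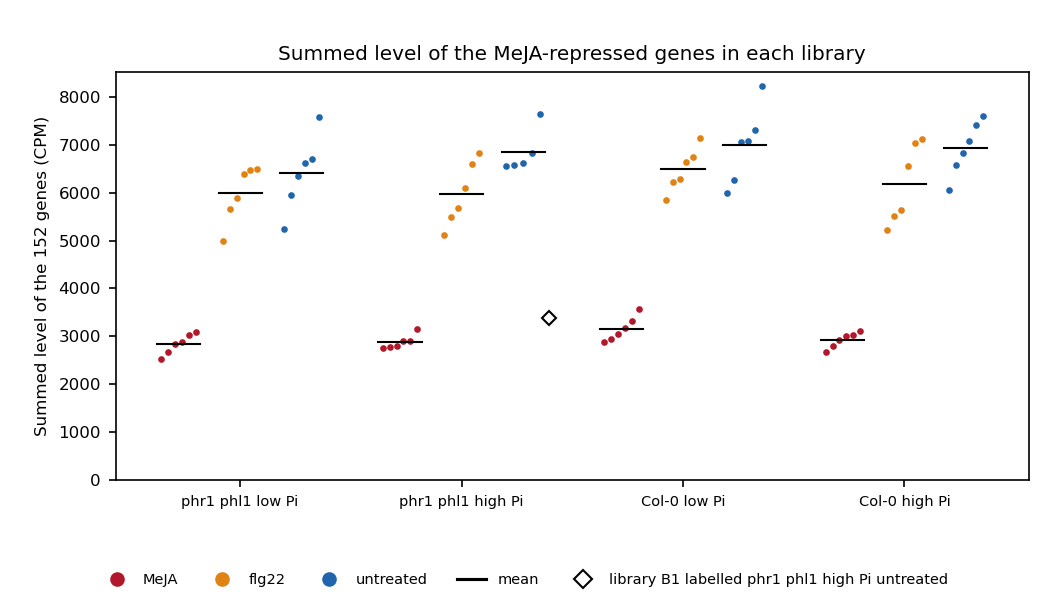
Summed level of the 152 genes (CPM) in each library, by setting and treatment; points are libraries, sorted within a group, and lines are group means. The MeJA libraries lie between 2525 and 3578 CPM, below every flg22 and untreated library, which the choice of the genes favours. The open diamond is library B1, labelled as untreated phr1 phl1 at high Pi, at 3376 CPM.

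The median gene had a MeJA level 2.29-fold lower than the untreated one (mean log2 ratio over the 4 settings -1.20, against -0.09 for all 14688 loci). With TMM scaling, which corrects the library totals for a few abundant transcripts, those medians were -1.14 and -0.03. The median ratio was 0.435 in phr1 phl1 low Pi, 0.415 in phr1 phl1 high Pi, 0.473 in Col-0 low Pi and 0.422 in Col-0 high Pi. The choice bounded the ratio in all 4 settings, and within that bound the largest ratio of a gene exceeded its smallest 1.43-fold at the median gene, from 1.02-fold for THI2.2, a thionin of the antimicrobial kind, to 2.86-fold for AT5G54700, an ankyrin repeat protein. The 6 or 5 untreated libraries of a setting all lay above its 6 MeJA libraries for 82 of 152 genes in phr1 phl1 low Pi (4.90% of all loci), 100 in phr1 phl1 high Pi (5.68%), 76 in Col-0 low Pi (2.66%) and 71 in Col-0 high Pi (2.76%). Over the 4 settings pooled, the highest of 24 MeJA libraries lay below the lowest of 23 untreated ones for 11 genes (0.0953% of all loci).

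The cell wall gave the largest named group, with 19 genes and a median log2 ratio of -1.22. AGP30, an arabinogalactan protein of roots, had a lowest, median and highest level of 0, 3.46 and 10.1 CPM with MeJA, and 6.55, 16.9 and 36.7 CPM untreated. Its mean level was 4.45-fold lower with MeJA, and the pooled ranges overlapped. 4 xyloglucan endotransglucosylase/hydrolase genes, whose enzymes cut and rejoin the xyloglucan tethers of the wall, were in the set: XTH19, XTH17, XTH32 and XTH5, at log2 ratios of -1.49, -1.46, -1.22 and -1.15. XTH19 had 3.14, 8.56 and 17.3 CPM with MeJA (lowest, median, highest), and 14.1, 23.3 and 38.6 CPM untreated. The ranges met only between the highest MeJA and the lowest untreated libraries. EXPA11 and EXPA14, expansins that loosen the wall, had log2 ratios of -1.26 and -1.01. 6 genes had pectin in their description, 5 pectin lyase-like proteins and the methylesterase inhibitor-type AT1G62770 (-1.70). Of these, AT5G14650 had 8.89 to 26.1 CPM with MeJA and 26.4 to 76.7 CPM untreated, without overlap. GH9B13, an endoglucanase of the cellulase family, had -1.11, and 3 further arabinogalactan genes, AGP41, AGP22 and FLA13, had -1.47, -1.15 and -0.90.

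7 genes for wall oxidation followed, with a median log2 ratio of -1.29. AT5G64100, a class III peroxidase, had 15.4, 33.8 and 70.2 CPM with MeJA (lowest, median, highest) and 75.7, 137 and 249 CPM untreated. Its groups did not overlap, and its level was 3.96-fold lower with MeJA. AT3G01190, another class III peroxidase, had 31.9, 64.3 and 91.0 CPM with MeJA and 99.4, 171 and 227 CPM untreated, also without overlap (2.60-fold lower). The peroxidases AT2G18150 and AT2G37130 had log2 ratios of -1.72 and -1.19. LAC7, a laccase, a type of copper oxidase, had 10.1, 17 and 28.6 CPM with MeJA and 7.93, 34.5 and 63.2 CPM untreated. Its ranges overlapped, and the lowest untreated library lay below all MeJA libraries. Class III peroxidases and laccases oxidise phenolic compounds of the wall, such as lignin precursors.

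13 genes moved water, nitrogen, phosphate, sugars or amino acids (median log2 ratio -1.33). TIP2;2, an aquaporin of the vacuole membrane, had 18.0, 36.0 and 52.0 CPM with MeJA (lowest, median, highest) and 60.7, 96.8 and 141 CPM untreated, without overlap. The second vacuolar aquaporin, DELTA-TIP, had 212, 403 and 704 CPM with MeJA and 504, 870 and 1169 CPM untreated. NRT2:1, the main high-affinity nitrate uptake carrier of roots, had 54.1, 103 and 202 CPM with MeJA and 134, 268 and 402 CPM untreated. DELTA-TIP was 2.04-fold and NRT2:1 2.31-fold lower with MeJA, with some overlap in both. PHO1;H1, a relative of PHO1 that loads phosphate into the xylem, had 2.89, 9.07 and 16.9 CPM with MeJA and 13.3, 22.0 and 48.8 CPM untreated (2.57-fold lower). Its ranges also overlapped. 3 UMAMIT genes, of a family of amino acid exporters, stood at -1.97 (UMAMIT17), -1.56 (UMAMIT4) and -1.38 (UMAMIT29). SWEET2, a sugar carrier of the vacuole membrane, was at -1.08, and GDU4, of a family that affects amino acid export, at -0.97.

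8 genes dealt with metals (median log2 ratio -1.14). FRO6, a ferric reductase of the plasma membrane in shoots, had 13.4, 30.3 and 69.6 CPM with MeJA (lowest, median, highest) and 24.9, 67.3 and 164 CPM untreated, with overlap (2.3-fold lower). The vacuolar iron transporter-like gene AT3G25190 had 8.81 to 47.3 CPM with MeJA and 49.7 to 118 CPM untreated, without overlap. HMA2, a zinc and cadmium pump that serves root-to-shoot transport, was at -1.26.

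11 genes were assigned to suberin, cutin or other lipids (median log2 ratio -1.16). CYP86B1, a P450 enzyme that hydroxylates the very long fatty acids of suberin, was at -1.25. ABCG6, a transporter needed for the suberin barrier, was at -1.16, and DSEL, a lipase acting in seedling establishment, at -2.01. AT5G46890 (-1.14) and AT3G22620 (-1.10) are lipid-transfer proteins. AT4G20390 (-1.56) and AT3G06390 (-1.15), of the UPF0497 family of membrane proteins, were placed in this group by hand. No role in lipids is shown for these 2 here.

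7 genes were assigned to the light response or the chloroplast (median log2 ratio -1.45). HFR1, a bHLH factor of far-red light signalling, had 0, 2.27 and 4.69 CPM with MeJA (lowest, median, highest) and 0.625, 7.73 and 17.3 CPM untreated. ELIP2, an early light-induced protein that protects chloroplasts in strong light, had 3.35, 14.0 and 40.1 CPM with MeJA and 8.99, 22.2 and 179 CPM untreated. Both overlapped, and the untreated libraries of ELIP2 were widely spread. LHCB4.3, an antenna protein of photosystem II, was at -1.25. FBA5, an aldolase, was at -1.58. It was placed in this group by hand, and no chloroplast location is shown for it here.

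Among 7 hormone genes (median log2 ratio -1.08), GA3OX2, which makes active gibberellin, had 0, 2.53 and 8.40 CPM with MeJA (lowest, median, highest) and 1.81, 10.6 and 26.3 CPM untreated. IPT5, a cytokinin synthesis gene, was at -0.94, PSK3, a precursor of the growth peptide phytosulfokine, at -1.14, and GASA6, of a gibberellin-regulated peptide family, at -1.12. BRS1 and BAT1, linked to brassinosteroid signalling and inactivation, were at -1.02 and -1.08. 9 other transcription regulators had a median of -1.26, among them BT1, a BTB and TAZ domain protein, at -1.46, and AT1G26790, a Dof factor, at -0.99.

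The secreted defence-type and glycine-rich group had 9 genes and a median log2 ratio of -1.21. AT2G05540, a glycine-rich protein gene, had 6.78, 23.4 and 56.7 CPM with MeJA (lowest, median, highest) and 22.2, 112 and 240 CPM untreated, with overlap (4.1-fold lower). AT2G19970, of the CAP family to which PR-1 belongs, was 5.56-fold lower, with 0 to 6.20 CPM with MeJA and 5.73 to 30.3 CPM untreated. AT1G02360, a chitinase, was at -1.17. 5 proteases had a median of -1.62. AT4G11320, a papain-type protease gene, had 83.1, 133 and 189 CPM with MeJA and 168, 358 and 713 CPM untreated, so that only its extremes overlapped. The metacaspase gene MC6 had 0 to 2.89 CPM with MeJA and 3.97 to 11.4 CPM untreated, without overlap.

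Among 7 glycosidases, transferases and oxidoreductases, BGLU7, a beta-glucosidase, had the lowest mean log2 ratio of the 152 genes (-3.05, 8.25-fold lower). It had 0, 1.59 and 4.29 CPM with MeJA (lowest, median, highest) and 3.44, 13.1 and 30.5 CPM untreated. The 4 cold and dehydration genes had the highest group median (-0.89): the dehydrins COR47 (-0.90) and ERD10 (-0.99), COR413-PM1 (-0.88) and ABF3, an abscisic acid response factor (-0.86). COR47 and ERD10 are neighbours on chromosome 1 with no gene between them. Of the 4 starch and sugar genes, BMY3, of the beta-amylase family, was at -0.95. The other 42 genes had no role assigned and a median of -1.15.

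**Figure D2:**
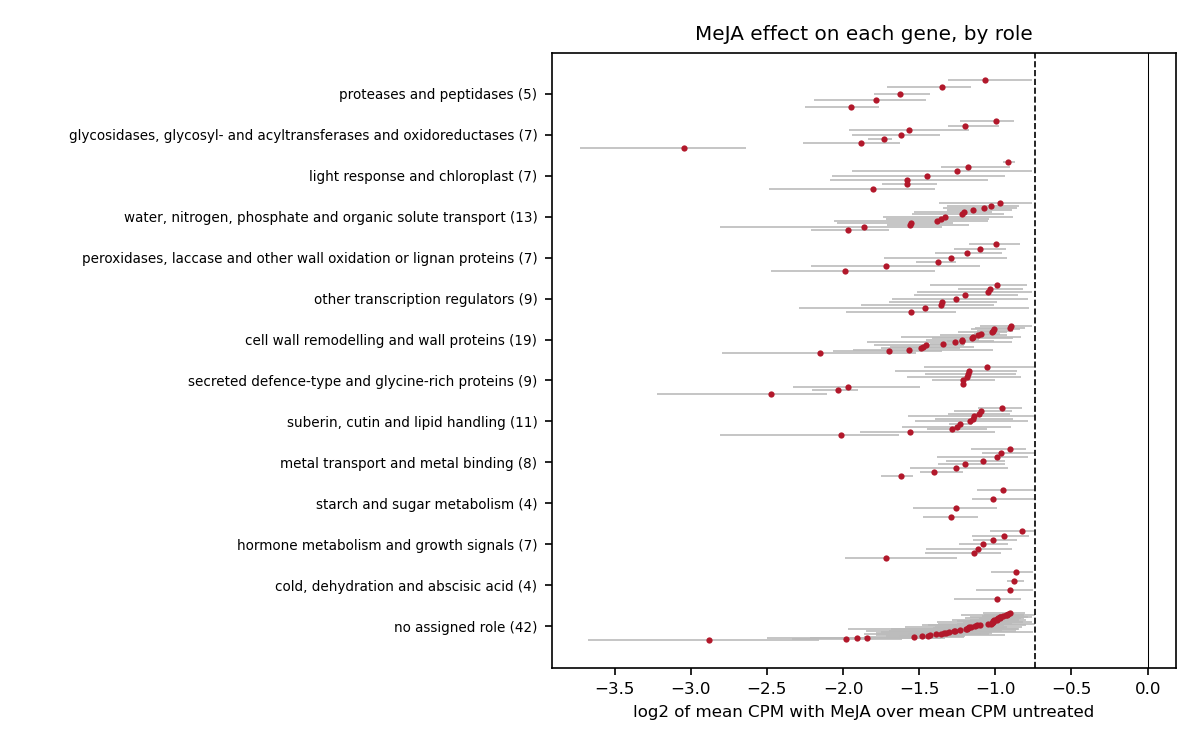
Log2 ratio of mean CPM with MeJA over mean CPM untreated for each of the 152 genes, grouped by role with the number of genes in brackets; points are means over 4 settings and grey lines run from the lowest to the highest setting. The dashed line is the limit of the choice, a ratio of 0.6, and BGLU7 lies farthest left at -3.05.

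The members of wider pathways did not all move so far. Of 17 xyloglucan enzyme genes on a list drawn up for this purpose, 15 had at least 5 CPM untreated in all settings. 12 of the 15 had a ratio below 1 in all 4 settings and 2 above 1 in all 4 (median log2 ratio -0.65). Of 21 aquaporin genes, 15 lay below 1 in all settings and 1 above (median -0.22). The 31 light harvesting and photosystem genes, which mark green tissue, had 27 below 1 in all 4 settings (median -0.22). Their summed level was 53102 to 124452 CPM with MeJA and 59165 to 121646 CPM untreated. Of 8 Casparian strip genes, which mark the root endodermis, 4 had at least 5 CPM untreated in all settings. These 4 lay below 1 in all settings (median -0.57), and the list of 8 summed to 30.2 to 76.1 CPM with MeJA and 43.1 to 103 CPM untreated. Of 13 root hair genes, 9 had at least 5 CPM untreated in all settings. 2 of the 9 lay below 1 in all settings (median 0.21), and the list of 13 summed to 157 to 393 CPM with MeJA and 109 to 546 CPM untreated. None of the genes of these 3 marker lists was at 0 in all libraries. Their part in the results was not tested. The share of all loci with a ratio below 1 in all 4 settings was not taken. The median log2 ratio of all 14688 loci was itself below 0, at -0.09. The counts below 1 are therefore by themselves no result about these pathways or tissues.

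The proteins of the set shared a location more often than those of all loci. The annotation named a secretory-type location (cell wall, apoplast, extracellular region or endomembrane system) for 49 of 152 genes (32.2%) and for 1662 of 14688 loci (11.3%). Exons summed to a median of 1495 bases per gene in the set and 1882 bases over all loci.

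In library B1, labelled as untreated phr1 phl1 at high Pi, the 152 genes summed to 3376 CPM. That is within the range of the MeJA libraries and below every other untreated library. 119 of the genes were nearer the MeJA mean and 33 nearer the untreated mean of phr1 phl1 high Pi. Its level was 25.3 CPM for AT5G64100 and 24.8 CPM for TIP2;2, both inside the pooled MeJA ranges, while NRT2:1, at 171.5 CPM, lay in both pooled ranges. In experiment A alone 76 genes had ratios of at most 0.6 in all 4 settings and 145 had ratios below 1. In experiment B alone the counts were 112 and 152. Both experiments took part in the choice, so these counts are no independent repeat. The same rule applied to experiment A alone chose 110 genes, 67 of them among the 152. Applied to experiment B alone it chose 181, with 111 among the 152. The 7 genes with a ratio above 1 in some setting of experiment A were AT4G36850, ASG4, AT1G49200, AT1G67910, AT1G26790, AT5G42760 and AT1G48100.

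The flg22 libraries had no part in the choice and show how the same genes stood under a bacterial signal. Most of the genes did not pass the test, and most of those that passed fell. With flg22 over untreated, an adjusted p under 0.05 in edgeR was reached by 4 genes that rose and 14 that fell in phr1 phl1 low Pi (2.2% and 1.17% of all 18693 genes tested), and by 3 and 24 in phr1 phl1 high Pi (3.17% and 1.45%). The counts were 3 and 17 in Col-0 low Pi (2.79% and 1.66%) and 1 and 4 in Col-0 high Pi (0.663% and 0.316%). As shares of the 152 genes, 9.21%, 15.8%, 11.2% and 2.63% fell in the same order, above the shares of all genes. The shares that rose, 2.63%, 1.97%, 1.97% and 0.658%, were near or below those of all genes and are no result about the set. These comparisons share their untreated libraries with the choice of the genes, which favours genes high in them. The direction, the larger shares that fell and the medians that follow are therefore not independent of the choice. The 152 genes also had untreated means of at least 5 CPM, which the 18693 genes tested did not have to reach. The median log2 change of the 152 genes was -0.23, -0.40, -0.28 and -0.25, and that of all genes -0.01, -0.01, 0.00 and -0.01. The count in phr1 phl1 high Pi was 7 in experiment B alone and 54 in experiment A alone, and 17 without untreated library A2 of that group. In phr1 phl1 low Pi it was 30 in experiment A alone, 5 in experiment B alone and 10 with library B1 kept, against 18. In Col-0 high Pi it was 37 in experiment A alone, against 5, and in Col-0 low Pi 10 in experiment B alone, against 20. Of 6 Casparian strip genes, 4 fell and 0 rose with flg22 in Col-0 low Pi (edgeR, median -0.70). In each of the other settings 0 of 6 passed (medians -0.44 to -0.27). Their list summed to 27.9 to 77.9 CPM over all flg22 libraries and 43.1 to 103 CPM over untreated ones. Of 13 root hair genes, 3 rose in phr1 phl1 low Pi, 1 in phr1 phl1 high Pi and 2 in Col-0 high Pi. 0 fell in these settings, while in Col-0 low Pi 1 rose and 2 fell. Of 31 light harvesting and photosystem genes, 0 passed in any setting. The part of these lists in the result was not tested.

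AGP30 had the lowest flg22 value in 3 settings. In phr1 phl1 low Pi it had 1.98, 3.46 and 8.09 CPM with flg22 (lowest, median, highest) and 11.2, 17.4 and 19.6 CPM untreated. In phr1 phl1 high Pi it had 0.587, 2.59 and 6.28 CPM with flg22 and 12.7, 17.8 and 19.3 CPM untreated. The groups did not overlap in either. The log2 changes were -2.06 ± 0.33 (SE, adjusted p = 2.49e-05) and -2.55 ± 0.35 (adjusted p = 1.40e-06). In Col-0 low Pi AGP30 had 2.41, 4.21 and 6.44 CPM with flg22 and 6.55, 24.1 and 36.7 CPM untreated, and fell by 2.44 ± 0.32 on the log2 scale (adjusted p = 9.41e-07). In Col-0 high Pi the change was -0.85 ± 0.32 (adjusted p = 0.190). The difference between the settings was not tested.

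Other wall and lipid genes were also lower with flg22. AT5G46890, the lipid-transfer protein, fell in phr1 phl1 low Pi (-1.64 ± 0.34), phr1 phl1 high Pi (-1.23 ± 0.31) and Col-0 low Pi (-1.50 ± 0.30). XTH17 fell in phr1 phl1 low Pi (-1.21 ± 0.29) and Col-0 low Pi (-1.24 ± 0.27), where XTH19 fell as well (-0.94 ± 0.21). The pectin lyase-like AT5G14650, the CAP protein AT2G19970, the endoglucanase GH9B13, the peroxidase AT3G01190 and the GDSL lipase AT1G74460 fell in the same 3 settings, by 0.55 to 1.14 on the log2 scale. 7 genes fell in 3 settings and 37 in at least 1. Such counts were not taken over all genes, and the untreated libraries also chose the genes, so they are no result about the set. In Col-0 high Pi the 4 that fell were AT2G15020, BT1, AT5G42760 and SWEET2. BT1 had 13.1, 31.8 and 50.4 CPM with flg22 there and 39.1, 90.3 and 195 CPM untreated (-1.60 ± 0.32, adjusted p = 0.00379). For AT2G15020 and AT5G42760 the sign differed between experiments (A -2.58 and -2.20, B 0.22 and 0.18, as log2 ratios of mean CPM).

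The 5 genes that rose with flg22 in some setting are described singly. The chitinase AT1G02360 rose in all 4. In phr1 phl1 low Pi it had 37.1, 38.8 and 45.4 CPM with flg22 (lowest, median, highest) and 15.4, 24.9 and 29.9 CPM untreated, and in phr1 phl1 high Pi 34.1, 36.4 and 45.5 CPM with flg22 and 17, 21.3 and 22.4 CPM untreated. In Col-0 the levels were 25.5, 35.4 and 52.9 CPM with flg22 and 18.4, 21.8 and 28.3 CPM untreated at low Pi, and 28, 33.8 and 41.5 CPM with flg22 and 14.5, 16.6 and 23.0 CPM untreated at high Pi. Its groups overlapped only in Col-0 low Pi. The log2 changes in these settings were 0.84 ± 0.15, 1.00 ± 0.16, 0.74 ± 0.15 and 0.87 ± 0.16 (adjusted p = 0.000215, 3.67e-05, 0.00133 and 0.000762).

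The laccase gene LAC7 had 54.9, 91.2 and 142 CPM with flg22 in phr1 phl1 low Pi (lowest, median, highest), against 39.6, 55.1 and 63.2 CPM untreated. In phr1 phl1 high Pi it had 45.9, 76.9 and 113 CPM with flg22 and 27.0, 33.4 and 39.8 CPM untreated. In Col-0 low Pi the values were 42.7, 60.4 and 80.7 CPM with flg22 and 21.2, 34.8 and 41.8 CPM untreated. The groups overlapped in phr1 phl1 low Pi and in neither of the other settings. LAC7 rose by 0.90 ± 0.24, 1.31 ± 0.26 and 0.92 ± 0.24 on the log2 scale (adjusted p = 0.0179, 0.000640 and 0.0157). The peroxidase gene AT5G64100 had 233, 257 and 334 CPM with flg22 in phr1 phl1 high Pi, all above its untreated 75.7, 127 and 139 CPM (1.25 ± 0.20, adjusted p = 3.50e-05). It also rose in phr1 phl1 low Pi (0.65 ± 0.19, adjusted p = 0.0390). In Col-0 its changes were 0.52 ± 0.19 at low Pi and 0.65 ± 0.19 at high Pi (adjusted p = 0.109 and 0.0771). The remaining 2 that rose were AT2G37130, a peroxidase gene, in Col-0 low Pi (0.67 ± 0.21, adjusted p = 0.0426) and AT5G15780, of an extensin-type family, in phr1 phl1 low Pi (0.60 ± 0.18, adjusted p = 0.0490).

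**Figure D3:**
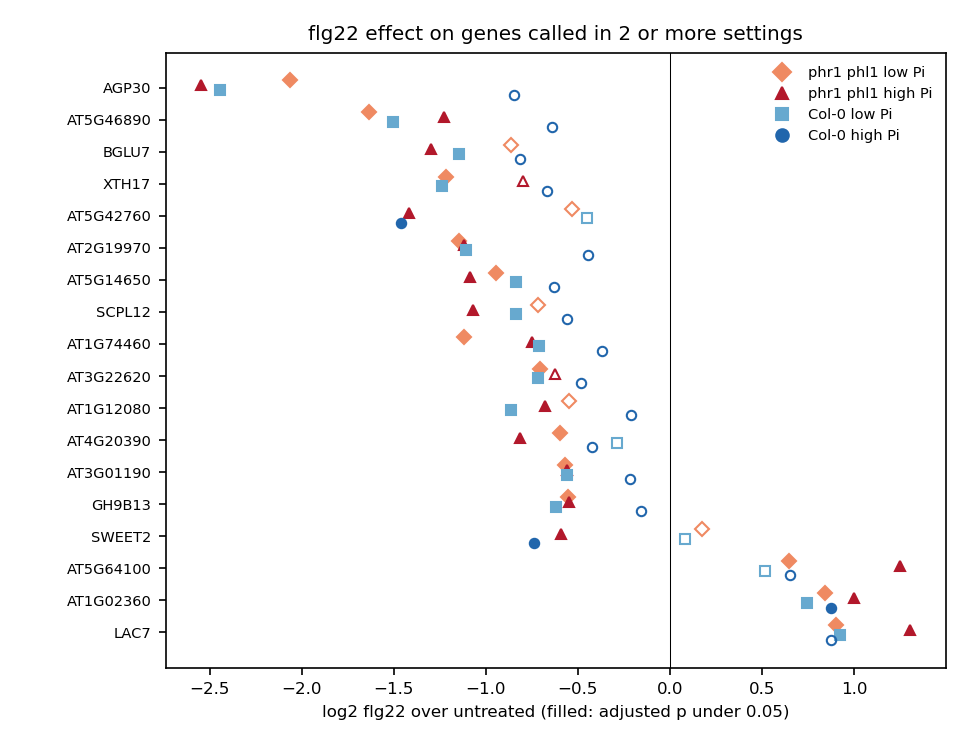
Log2 change with flg22 over untreated, from edgeR, for the 18 genes called in 2 or more settings; each symbol is a setting and filled symbols have an adjusted p under 0.05. AGP30 is lowest, between -2.55 and -0.85, and LAC7, AT1G02360 and AT5G64100 lie to the right of 0 in all 4 settings.

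The phosphate supply was examined first in the flg22 libraries, which did not choose the genes. At low over high Pi, 6 genes rose and 13 fell in phr1 phl1 (4.75% and 5.53% of all genes tested), and 10 rose and 10 fell in Col-0 (7.89% and 7.16%). These are 3.95% and 8.55% of the 152 genes in phr1 phl1 and 6.58% each in Col-0, near the shares of all genes. 4 genes rose in both genotypes, 66.7% of those in phr1 phl1 and 40.0% of those in Col-0: AT2G05540, AT3G06390, HFR1 and RABG3B. 6 fell in both, 46.2% and 60.0%: ELIP2, LHCB4.3, NRT2:1, AT1G26790, AT4G12830 and GDU4. The overlap between genotypes was not taken over all genes, so these shares are no result about the set. For GDU4 in phr1 phl1 the experiments differed in sign (A -1.85, B 0.12, as log2 ratios of mean CPM). AT1G26790 had few reads in experiment A. Its means there at low and high Pi were 0 and 0.623 CPM in phr1 phl1 and 0.492 and 1.93 CPM in Col-0. Counts were lower in experiment B alone (2 in phr1 phl1 and 7 in Col-0) and higher in experiment A alone (44 and 62).

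ELIP2 had 6.0, 10.9 and 23.7 CPM at low Pi in phr1 phl1 with flg22 (lowest, median, highest), against 14.9, 26.4 and 213 CPM at high Pi. In Col-0 with flg22 it had 3.96, 7.00 and 14.9 CPM at low Pi and 11.2, 29.4 and 165 CPM at high Pi. The groups overlapped in both genotypes. It fell by 2.13 ± 0.45 in phr1 phl1 and by 2.41 ± 0.49 in Col-0 on the log2 scale (adjusted p = 0.00223 and 0.000495). Within experiments the log2 ratios of mean CPM were -2.61 (A) and -1.27 (B) in phr1 phl1 and -3.18 (A) and -1.40 (B) in Col-0. LHCB4.3 fell as well, to 4.36, 6.0 and 7.59 CPM at low Pi in phr1 phl1, against 8.21, 15.8 and 20.5 CPM at high Pi, without overlap (-1.36 ± 0.25, adjusted p = 0.000449). In Col-0 its change was -0.86 ± 0.24 (adjusted p = 0.0108). In the same comparisons 4 of 31 light harvesting and photosystem genes rose and 1 fell in phr1 phl1, and 19 rose and 1 fell in Col-0.

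NRT2:1 had 31.4, 120 and 149 CPM at low Pi in phr1 phl1 with flg22 (lowest, median, highest), against 87.0, 179 and 299 CPM at high Pi. In Col-0 with flg22 it had 103, 146 and 218 CPM at low Pi and 182, 318 and 369 CPM at high Pi. The groups overlapped in both. The log2 changes were -0.85 ± 0.25 (adjusted p = 0.0219) and -0.91 ± 0.25 (adjusted p = 0.00896). Of 12 nitrate uptake and assimilation genes, 5 fell in phr1 phl1 and 7 in Col-0, and 0 rose in either (edgeR).

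HFR1 had 8.19, 14.0 and 19.5 CPM at low Pi in phr1 phl1 with flg22 (lowest, median, highest), against 3.52, 5.69 and 8.73 CPM at high Pi. In Col-0 with flg22 it had 5.90, 10.8 and 15.7 CPM at low Pi and 2.0, 3.71 and 8.26 CPM at high Pi. Only the extremes overlapped, and it rose by 1.31 ± 0.37 in phr1 phl1 and 1.47 ± 0.39 in Col-0 on the log2 scale (adjusted p = 0.0153 and 0.00707). The glycine-rich AT2G05540 had 144, 168 and 202 CPM at low Pi in phr1 phl1, above all of its 43.3, 78.5 and 99.7 CPM at high Pi. It rose by 1.3 ± 0.32 in phr1 phl1 and by 1.76 ± 0.32 in Col-0 (adjusted p = 0.00698 and 0.000162). RABG3B, a small GTPase of the vacuolar pathway, rose by 0.87 ± 0.21 and 1.11 ± 0.21, where experiment B alone gave 0.54 in phr1 phl1 and 0.14 in Col-0.

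**Figure D4:**
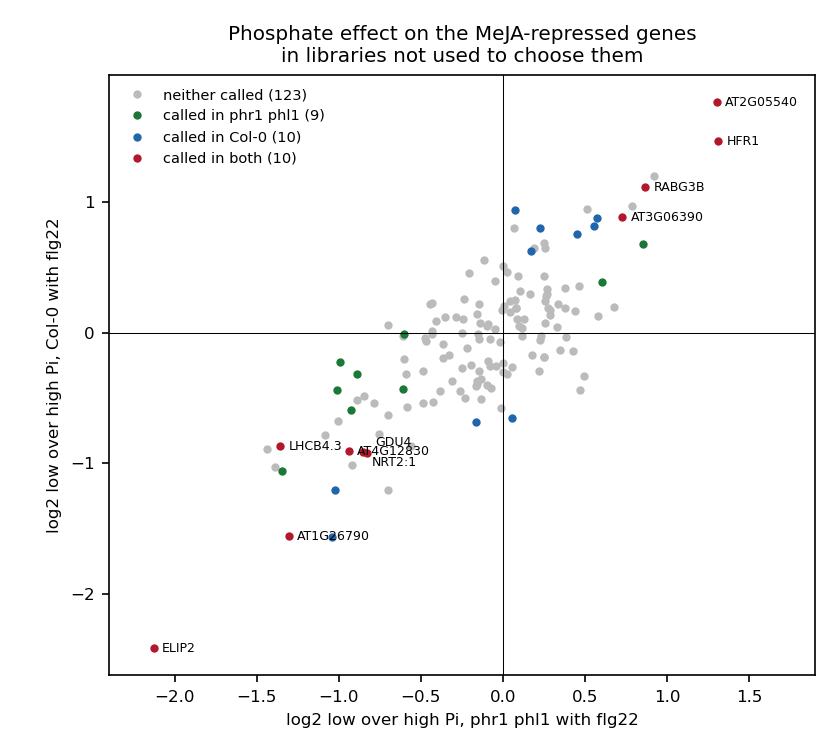
Log2 change of each of the 152 genes at low over high Pi in flg22 libraries, from edgeR, in phr1 phl1 (horizontal) and in Col-0 (vertical); colours mark an adjusted p under 0.05 in one, both or neither, with the number of genes in brackets. The 10 named genes passed in both genotypes, from ELIP2 at -2.13 and -2.41 to AT2G05540 at 1.3 and 1.76.

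In untreated seedlings, whose libraries also chose the genes, 1 gene rose and 22 fell at low Pi in phr1 phl1 (6.65% and 5.63% of all genes tested), and 9 rose and 20 fell in Col-0 (7.07% and 8.46%). Of the 20 that fell in Col-0, 9 had the same sign in both experiments; of the 22 in phr1 phl1, 19 did. The gene that rose in phr1 phl1, AT3G06390 (0.71 ± 0.24), had a log2 ratio of 1.34 in A and -0.07 in B. SWEET2 fell in both genotypes, by 0.85 ± 0.14 in phr1 phl1 and 0.87 ± 0.14 in Col-0 on the log2 scale (adjusted p = 2.85e-05 and 5.46e-06), and in both experiments. ELIP2 fell by 1.76 ± 0.44 and 1.41 ± 0.42, and LHCB4.3 by 1.15 ± 0.24 and 0.69 ± 0.22. AGP30 rose in Col-0 by 1.16 ± 0.28 on the log2 scale (adjusted p = 0.00274), where experiment A gave 1.83 and experiment B 0.38. The count in phr1 phl1 rested on single high Pi libraries: it was 12 without A1, 13 without A2, 15 without A3, 36 without B2 and 38 without B3. It was 3 in experiment B alone and 61 in experiment A alone, and in Col-0 6 and 77. The split in phr1 phl1 moved as well. With library B1 kept 11 genes rose and 13 fell, with 14 of the 24 among the 23 above. In experiment A alone 16 rose and 45 fell, and without B2 10 rose and 26 fell.

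Few of the 152 genes passed the test between the genotypes, and few of all genes tested did. The counts of 0 at high Pi and in the interaction are therefore no result about the set. At high Pi, edgeR called 0 of 152 in untreated libraries (15 at an unadjusted p under 0.05, 0 by DESeq2) and 0 in flg22 libraries (18 at an unadjusted p under 0.05, 1 by DESeq2), with 0.0428% and 0.139% of all genes higher and 0.0214% and 0.0374% lower. At low Pi, 1 was higher and 5 were lower in untreated phr1 phl1 than in Col-0 (2.31% and 1.39% of all), and 0 and 2 with flg22 (0.321% and 0.155%). The change of the phosphate response between genotypes, tested in flg22 libraries as the low Pi response in phr1 phl1 minus that in Col-0, was called for 0 of 152 genes by edgeR (9 at an unadjusted p under 0.05) and for 0 by DESeq2. It was called for 0% of all genes tested. The counts at high Pi depended on the libraries used. Untreated, 10 genes were called in experiment A alone and 3 with library B1 kept, and with flg22 4 in experiment A alone. At low Pi, experiment A alone called 12 untreated and 8 with flg22, and experiment B alone 2 and 1.

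PHO1;H1 was lower in phr1 phl1 at low Pi with and without flg22. Untreated, it had 15.5, 17.3 and 24.1 CPM in phr1 phl1 (lowest, median, highest), against 22.9, 34.8 and 48.8 CPM in Col-0, and only the extremes overlapped (-1.08 ± 0.19, adjusted p = 4.15e-05). With flg22 it had 4.62, 14.7 and 21.4 CPM in phr1 phl1 and 20.8, 23.3 and 33.4 CPM in Col-0 (-0.94 ± 0.20, adjusted p = 0.00693). Within experiments the flg22 values were -1.60 (A) and -0.39 (B), and the untreated ones -1.18 (A) and -0.75 (B). At high Pi the changes were -0.35 ± 0.20 untreated and -0.28 ± 0.19 with flg22 (adjusted p = 0.830 and 0.957). At low over high Pi, PHO1;H1 rose in untreated Col-0 (0.70 ± 0.18, adjusted p = 0.00498), while untreated phr1 phl1 gave -0.02 ± 0.20 (adjusted p = 0.981). The difference between the genotypes in this response of PHO1;H1 was not tested in untreated libraries. Its interaction in flg22 libraries was -0.66 ± 0.27 and did not pass (adjusted p = 1). With MeJA its 6 libraries held 2.90 to 10.4 CPM in phr1 phl1 low Pi and 8.71 to 16.9 CPM in Col-0 low Pi. Its window is the second of those printed above.

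The aspartyl protease gene AT3G51350 was also lower in phr1 phl1 at low Pi in both treatments. It had 7.83, 11.7 and 14.2 CPM in untreated phr1 phl1 (lowest, median, highest), below all Col-0 libraries at 15.4, 19.4 and 22.1 CPM (-0.83 ± 0.17, adjusted p = 0.000477), and changed by -0.74 ± 0.17 with flg22 (adjusted p = 0.0208). FRO6 had 33.4, 54.0 and 100 CPM in untreated phr1 phl1 low Pi and 67.3, 86.8 and 141 CPM in Col-0, with overlap (-0.81 ± 0.22, adjusted p = 0.0232). With flg22 its change was -0.68 ± 0.22 (adjusted p = 0.202). FBA5 fell by 0.95 ± 0.24 on the log2 scale and the metal-binding AT5G24580 by 0.69 ± 0.18 in untreated libraries. For AT5G24580 the experiments differed in sign (A -1.24, B 0.14). UMAMIT29 was the 1 gene that rose, with 16.3, 20.9 and 26.6 CPM in phr1 phl1 and 8.36, 10.3 and 16.4 CPM in Col-0 (0.83 ± 0.21, adjusted p = 0.00738).

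**Figure D5:**
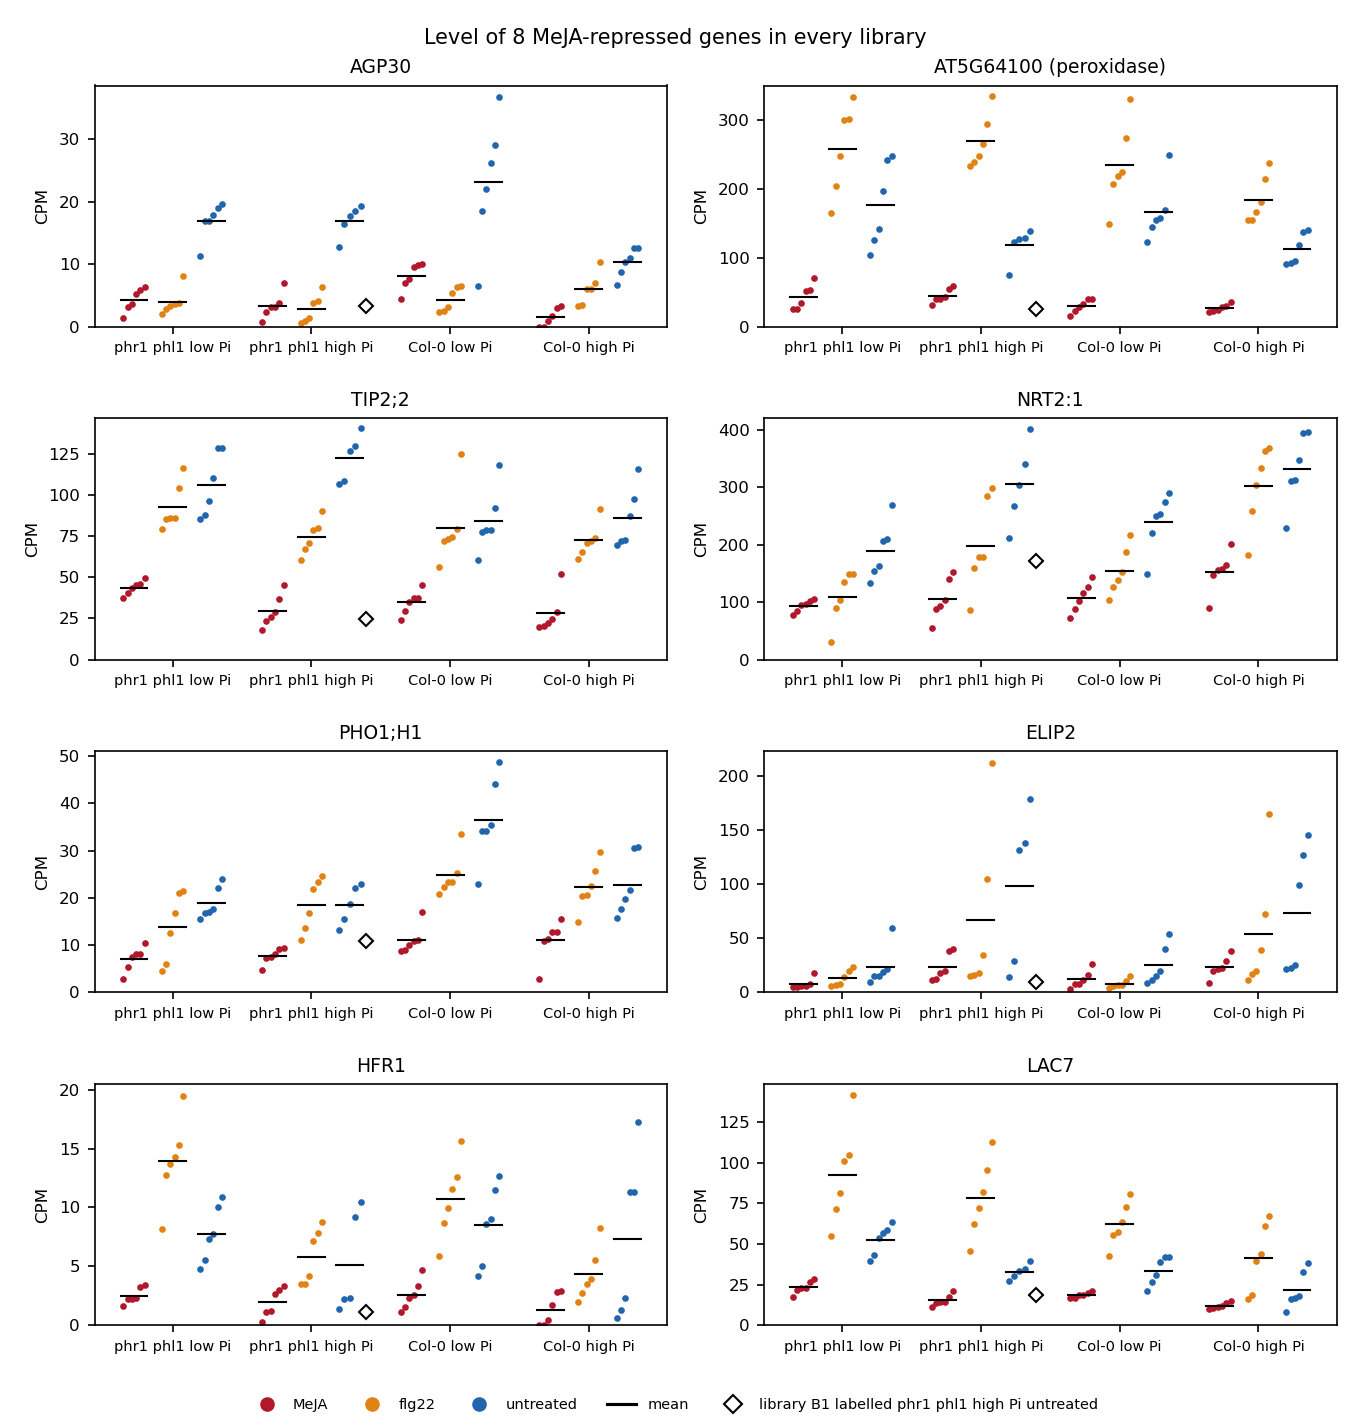
Level (CPM) of 8 of the genes in every library, by setting and treatment; points are libraries, sorted within a group, lines are group means and the open diamond is library B1, labelled as untreated phr1 phl1 at high Pi. MeJA means lie below untreated means for all 8, flg22 means lie above them for LAC7 and AT5G64100, and PHO1;H1 in untreated libraries is highest in Col-0 low Pi, up to 48.8 CPM.

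Across the 12 comparisons and the interaction outside MeJA, 86 of the 152 genes were called at least once and 66 were not. The share of all genes tested that was called at least once was not taken, so these counts are no result about the set. Of the 169 calls, 147 had the same sign in experiments A and B, as log2 ratios of mean CPM. Each call was made on both experiments together, which favours equal signs, so this count is no independent repeat. AT1G26790 at low over high Pi in phr1 phl1 with flg22 is not among the 147. Its mean at low Pi was 0 CPM in experiment A, against 0.623 CPM at high Pi, so no ratio was formed.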

How the data were processed

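For 72 libraries of whole seedlings, the authors deposited gene-level read counts that had not been normalized. Per the submitters' processing notes, the build was TAIR10 and the tools were HTSeq 0.6.1p1, TopHat2 2.1.1, cutadapt 1.3 and CASAVA 1.8, with no roles given. Libraries were poly(A)-selected and not stranded, per the labels' protocols, so overlapping and antisense genes cannot be told apart, and reads of near-identical copies (the XTH and UMAMIT families among them) may have been split or dropped. Names, exon lengths, locations and windows came from RefSeq TAIR10.1, matched by locus tag for 26719 of 27206 loci and all 152 genes. The table holds no coordinates.

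Levels are CPM of the library total, and each MeJA ratio is one of group means. Tests on the counts used edgeR 4.0.16 under R 4.3.3 (TMM scaling, filterByExpr with a minimum count of 10, robust quasi-likelihood fit with a term per group and for the experiment) over 71 libraries. This left 18693 genes, including all 152. P-values were adjusted by Benjamini-Hochberg over all genes within a comparison, with a threshold of 0.05. Values after ± are SE for log2 changes and SD for levels. Alternatives were DESeq2 1.42.0, other scaling and filters, each experiment alone, a replicate block, library B1 kept, and each of the 5 untreated phr1 phl1 high Pi libraries left out. The median depth was 3785657.5 counts per library, which limits genes of a few CPM.

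No 2 libraries of a group agreed within sampling noise (chi-square per degree of freedom at least 1.73 in 180 pairs). The series calls the libraries biological replicates from independent experiments, and no source used here says which share a culture. The genes and all lists were chosen with earlier results of these data known, and roles were assigned by hand after the genes were seen. Genes named in the text follow fixed rules: the 12 lowest MeJA ratios, the 8 highest untreated levels, up to 5 per list, up to 5 risen and 5 fallen per comparison, up to 4 per shared product word, and the edges of the limit. Other names were chosen after their values were seen. The 3 loci dropped by name are not analysed here.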

Additional observations from a re-analysis of the deposited data

Results flagged for a closer look

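In 216 groups of libraries, over 17 of the genes and their summed level, 20 held a library that stood apart from the rest of its group by Dixon's criterion. Chance alone gives about 1 in 20 groups. The following are values in CPM, each with the range of the other libraries of its group.

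Among wall genes, AGP30 stood at 8.09 in phr1 phl1 low Pi flg22 B3 (others 1.98 to 3.78) and at 11.2 in phr1 phl1 low Pi untreated B2 (16.8 to 19.6). XTH19 stood at 41.3 in Col-0 high Pi flg22 A2 (15.2 to 24.9). The peroxidase AT5G64100 stood at 75.7 in phr1 phl1 high Pi untreated B3 (123 to 139) and at 249 in Col-0 low Pi untreated A3 (123 to 169).

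Among transport genes, TIP2;2 stood at 125 in Col-0 low Pi flg22 B3 (56.5 to 79.5) and at 52.0 in Col-0 high Pi MeJA B1 (19.7 to 29.1). DELTA-TIP stood at 1368 in phr1 phl1 low Pi flg22 A1 (820 to 1021) and at 670.4 in Col-0 low Pi MeJA A1 (415 to 502). PHO1;H1 was apart in 3 Col-0 groups, at 16.9 in low Pi MeJA B1 (8.71 to 11.1), at 33.4 in low Pi flg22 B2 (20.8 to 25.2) and at 2.89 in high Pi MeJA B1 (10.9 to 15.6).

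ELIP2 stood at 18.3 in phr1 phl1 low Pi MeJA A3 (4.58 to 7.74) and at 59.3 in phr1 phl1 low Pi untreated A1 (9.46 to 21.9). GA3OX2 stood at 4.51 in phr1 phl1 low Pi MeJA B3 (0.968 to 1.70). AT2G05540 stood at 51.1 in phr1 phl1 high Pi MeJA B3 (13.8 to 25.2), and AT4G11320 at 273 in phr1 phl1 high Pi flg22 A2 (367 to 421). BGLU7 stood at 15.0 in Col-0 high Pi flg22 B2 (4.81 to 6.99).

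The summed level of the 152 genes stood at 3152 in phr1 phl1 high Pi MeJA A2 (2764 to 2908) and at 7636 in phr1 phl1 high Pi untreated B2 (6563 to 6822). Library B1 of that untreated group, which no comparison used, held 3376.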

How the results depend on the processing

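Of 113 alternative values, 81 stayed within 1.5 times the main value and 32 moved further. Scaling by DESeq2's size factors within edgeR and the replicate block moved none. The block gave 5, 20, 28 and 16 called genes for flg22 (Col-0 high Pi, Col-0 low Pi, phr1 phl1 high Pi, phr1 phl1 low Pi), against 5, 20, 27 and 18 without it. Same-numbered libraries did not pair (mean r of their deviations -0.00053, 79 of 396 pairs above 0.1, and 25 of 72 libraries correlating best with their own number). Experiment A alone gave 30 (phr1 phl1 low Pi), 54 (phr1 phl1 high Pi) and 37 (Col-0 high Pi) called genes for flg22 over untreated. For low over high Pi it gave 44 (phr1 phl1 flg22), 62 (Col-0 flg22), 61 (phr1 phl1 untreated) and 77 (Col-0 untreated), and for phr1 phl1 over Col-0 12 (low Pi untreated), 8 (low Pi flg22), 10 (high Pi untreated) and 4 (high Pi flg22). Experiment B alone gave 5, 7 and 10 for flg22 (phr1 phl1 low Pi, phr1 phl1 high Pi, Col-0 low Pi), 2, 7, 3 and 6 for low over high Pi in the order above, and 2 and 1 for phr1 phl1 over Col-0 at low Pi (untreated, flg22). With library B1 kept, flg22 in phr1 phl1 low Pi gave 10 called genes in place of 18, and phr1 phl1 over Col-0 at high Pi untreated gave 3 in place of 0. Without a filter on low counts flg22 in Col-0 high Pi gave 3, and DESeq2 gave 1 for phr1 phl1 over Col-0 at high Pi with flg22. For these counts and those of either experiment alone, the cause was not tested. Leaving out each untreated phr1 phl1 high Pi library gave 17 to 33 for flg22 in phr1 phl1 high Pi and 12 to 38 for low over high Pi in untreated phr1 phl1. A limit of 0.5 on the ratio left 59 genes, and an untreated mean of at least 10 CPM left 101, both of them stricter by construction. Depth limits genes of a few CPM, above all with MeJA in Col-0 high Pi.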
